A study of Mus musculus with 12 samples.

Results

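The genes described here are Nrip1 and 9 orphan nuclear receptor genes: Nr6a1, Nr5a1, Nr5a2, Nr0b1, Nr2f1, Nr2f2, Nr2f6, Nr2c1 and Nr2c2. They were taken as every probe set whose annotation gives one of these symbols and no other, which found 35 probe sets for the 10 genes, of 37600 probe sets tested and 16509 genes with a probe set of a single symbol. Expression was measured on 12 Affymetrix arrays of F9 cells, a mouse teratocarcinoma line that grows as embryonal carcinoma stem cells and differentiates when given retinoic acid. The groups were WT cells with ethanol vehicle (WT EtOH), WT cells with all-trans retinoic acid (WT atRA), and the same treatments of cells labelled RARaKO (RARaKO EtOH and RARaKO atRA), in which Rara, the gene of retinoic acid receptor alpha, is knocked out per the label. Each group held 3 arrays, numbered in the labels as sets 2, 3 and 4. Every group, the vehicle groups included, was in cycloheximide, an inhibitor of protein synthesis: cells were plated for 16 h, kept for 30 min in cycloheximide at 1 µg/ml, and then given 1 µM atRA or 0.1% ethanol for 7.5 h, which makes 8 h in the inhibitor. The labels do not say whether the RARaKO line was 1 clone, nor whether the sets were separate cultures, so the spread that p-values rest on is that among these arrays and may be technical.

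The deposited values are GCRMA values, taken here as log2, and the median of each probe set over the 12 arrays is 0. Absolute levels are therefore lost, and levels of different genes cannot be compared. The spacing of the numbers gave back only whether a probe set's median level was high or low: for 14 of the 35 it was at least 8 and for 21 it lay from 4 to 8, against 39.3% and 60.3% of all probe sets. The targeted gene did not follow its label. Rara read -0.60 ± 0.14 (SD, n = 3) in WT EtOH and -0.16 ± 0.11 in WT atRA, and 0.30 ± 0.02 and 0.20 ± 0.13 in the arrays labelled RARaKO EtOH and RARaKO atRA. The part of Rara that was deleted is not given in the sources used here, so it is not known whether this probe set checks the deletion, and every genotype difference below is one between arrays labelled RARaKO and arrays labelled WT. The markers of the labelled cell type were not absent: all 10 embryonal carcinoma markers, such as Pou5f1, Sox2 and Nanog, were in the highest class. So were 8 of 10 markers of extraembryonic endoderm, 3 of 7 of neuron, 1 of 5 of steroidogenic cells and 0 of 5 of fibroblast. These coarse classes do not tell embryonal carcinoma from endoderm, so they are no check of the cell type. In such bulk samples, fewer cells of a type and less RNA per cell cannot be told apart.

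Nuclear receptors are transcription factors with a DNA-binding domain and a ligand-binding domain, and a receptor is called an orphan where no ligand was known when it was found. Many of them, like the retinoic acid receptors, bind pairs of a hexamer close to AGGTCA, and the direction and spacing of the pair decide which receptors fit. The NR2 and NR6 members can occupy such repeats without retinoic acid, and the NR5 members bind a single extended hexamer. Nrip1 encodes a receptor-interacting protein with no DNA-binding domain of its own, which binds receptors that hold their ligand and recruits repressors to them. In embryonal and embryonic stem cells, Nr5a2 and Nr0b1 belong to the network around Pou5f1, and Nr6a1 encodes the germ cell nuclear factor, known for silencing Pou5f1 as cells differentiate.

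Promoter windows were read from RefSeq (GRCm38.p6) for 9 of the 10 genes, from 250 bases before to 50 after each start site, which made 13 windows. They were searched on both strands for the core hexamer AGGTCA, for its variant AGTTCA, for the variant that reads GGGTCA and for the one that reads GGTTCA, and for direct repeats of any pair of them spaced by 0 to 8 bases. Such a hexamer was present in 7 of the 13 windows, and in 43.7% of the 32851 windows of the table, so its presence is common. Windows with 3 or more hexamers made up 2.93% of the table, and 2 of the 13 were among them: one of the Nrip1 windows and the inner of 2 Nr6a1 windows. They are shown because these 2 genes carried the calls for a rise with atRA. Both are given 5′ to 3′ along the gene and end just before the start site, with the hexamers in capitals as they read on that strand. The Nrip1 sequence lies at chr16:76373828-76374077 on the minus strand, directly upstream of the annotated gene at chr16:76287403-76373827. The Nr6a1 sequence lies at chr2:38784516-38784765 on the minus strand, inside the annotated gene at chr2:38723369-38926461.
Nrip1: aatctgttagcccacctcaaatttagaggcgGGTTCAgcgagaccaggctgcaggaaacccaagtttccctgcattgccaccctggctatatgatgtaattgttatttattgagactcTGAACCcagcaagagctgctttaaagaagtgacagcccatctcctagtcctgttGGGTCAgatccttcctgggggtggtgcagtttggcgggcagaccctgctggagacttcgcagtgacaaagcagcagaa
Nr6a1, inner start: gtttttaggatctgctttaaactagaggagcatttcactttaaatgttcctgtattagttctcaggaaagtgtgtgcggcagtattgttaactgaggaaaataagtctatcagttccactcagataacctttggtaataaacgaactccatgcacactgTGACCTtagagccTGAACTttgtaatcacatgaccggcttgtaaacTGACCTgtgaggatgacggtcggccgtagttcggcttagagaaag

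The Nrip1 hexamers are single, with no pair within the spacings searched. In the Nr6a1 window a pair formed a direct repeat spaced by 7 bases, at -91 to -73 from the start site on the strand opposite to the gene. Such a repeat of any spacing from 0 to 8 was present in 1.12% of the table's windows, and one spaced by 7 in 0.0822%. For comparison, the windows of Rarb and Cyp26a1, textbook targets of the retinoic acid receptors, each held a repeat spaced by 5, which 0.0974% of windows did. The repeats read as follows on the strand that carries them, with the hexamers in capitals.
Nr6a1: AGTTCAggctctaAGGTCA
Rarb: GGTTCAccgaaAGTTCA
Cyp26a1: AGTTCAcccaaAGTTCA
The extended hexamer of the NR5 receptors was in none of the 13 windows and in 0.423% of the table's windows. These matches describe the letters only, and binding was not measured.

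Nrip1 was the member that rose most with atRA, and it rose in both genotypes. Of its 6 probe sets, 3 rose by 1.06 to 1.29 (log2) in WT and by 1.00 to 1.17 in the arrays labelled RARaKO, about a doubling (fold changes from 2.01 to 2.44). On probe set 1434384_at the WT EtOH arrays of sets 2, 3 and 4 read -0.52, -0.57 and -0.59 and the WT atRA arrays 0.65, 0.38 and 0.55. The RARaKO EtOH arrays read -0.38, -0.43 and -0.74 and the RARaKO atRA arrays 0.77, 0.77 and 0.40. All 6 atRA arrays were above all 6 vehicle arrays, and within a treatment the genotypes overlapped. The response was 1.09 ± 0.12 (SE of the limma fit; adjusted p = 6.11e-04) in WT and 1.17 ± 0.12 (adjusted p = 9.51e-04) in the arrays labelled RARaKO.

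On the Nrip1 probe set 1449089_at the values were -0.65, -1.05 and -1.12 in WT EtOH, 0.64, 0.22 and 0.16 in WT atRA, -0.16, -0.33 and -0.54 in RARaKO EtOH, and 1.08, 0.79 and 0.50 in RARaKO atRA. The 4 groups thus stood in the order WT EtOH, RARaKO EtOH, WT atRA, RARaKO atRA, with neighbouring groups apart except WT atRA and RARaKO atRA. The response was 1.29 ± 0.17 (adjusted p = 0.00331) in WT and 1.13 ± 0.17 (adjusted p = 0.0146) in the arrays labelled RARaKO. On 1418469_at the values were -0.52, -1.04 and -0.71 in WT EtOH, 0.53, 0.27 and 0.13 in WT atRA, -0.28, -0.13 and -0.60 in RARaKO EtOH, and 1.06, 0.42 and 0.53 in RARaKO atRA. Here too every atRA array was above every vehicle array. The responses were 1.06 ± 0.18 (adjusted p = 0.0182) and 1.00 ± 0.18 (adjusted p = 0.0444).

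The 3 probe sets followed each other over the 12 arrays, with Pearson correlations from 0.907 to 0.971, a description of points that share the arrays. The other 3 Nrip1 probe sets did not pass the test in either genotype. Of these, 1447211_at read 0.31 ± 0.14 in WT and 0.40 ± 0.14 in the arrays labelled RARaKO, and 1432603_at and 1454295_at read from 0.06 to 0.20. Averaged over both genotypes, the Nrip1 response was 1.13 ± 0.08 on 1434384_at (adjusted p = 1.90e-05), 1.21 ± 0.12 on 1449089_at (adjusted p = 1.69e-04) and 1.03 ± 0.13 on 1418469_at (adjusted p = 9.44e-04). These 3 averaged calls remained when any single array was left out. Within 1 genotype, the calls of 1434384_at also remained, while that of 1449089_at in the arrays labelled RARaKO was lost without either of the RARaKO EtOH arrays of sets 3 and 4 or the RARaKO atRA arrays of sets 2 and 3 (adjusted p from 0.0538 to 0.0825). The WT call of 1418469_at was lost without the WT EtOH array of set 3 or 4 or the WT atRA array of set 2 or 3 (adjusted p from 0.0688 to 0.0972), and its RARaKO call without any of 10 arrays, all but the WT EtOH arrays of sets 2 and 3 (adjusted p from 0.0562 to 0.139). Fitted on the 6 arrays labelled RARaKO alone, the RARaKO response passed on 1434384_at but not on 1449089_at (adjusted p = 0.0809) or 1418469_at (adjusted p = 0.192). Leaving out a whole set kept the 3 averaged calls. It ended the WT call of 1434384_at without set 3 (adjusted p = 0.054), and its RARaKO call without set 2 (adjusted p = 0.0673) or set 3 (adjusted p = 0.133). The WT call of 1449089_at was lost without set 3 (adjusted p = 0.233). Its RARaKO call was lost without set 3 (adjusted p = 0.511) or set 4 (adjusted p = 0.106). On 1418469_at both calls were lost without any 1 of the sets (adjusted p from 0.0622 to 0.493).

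**Figure D1:**
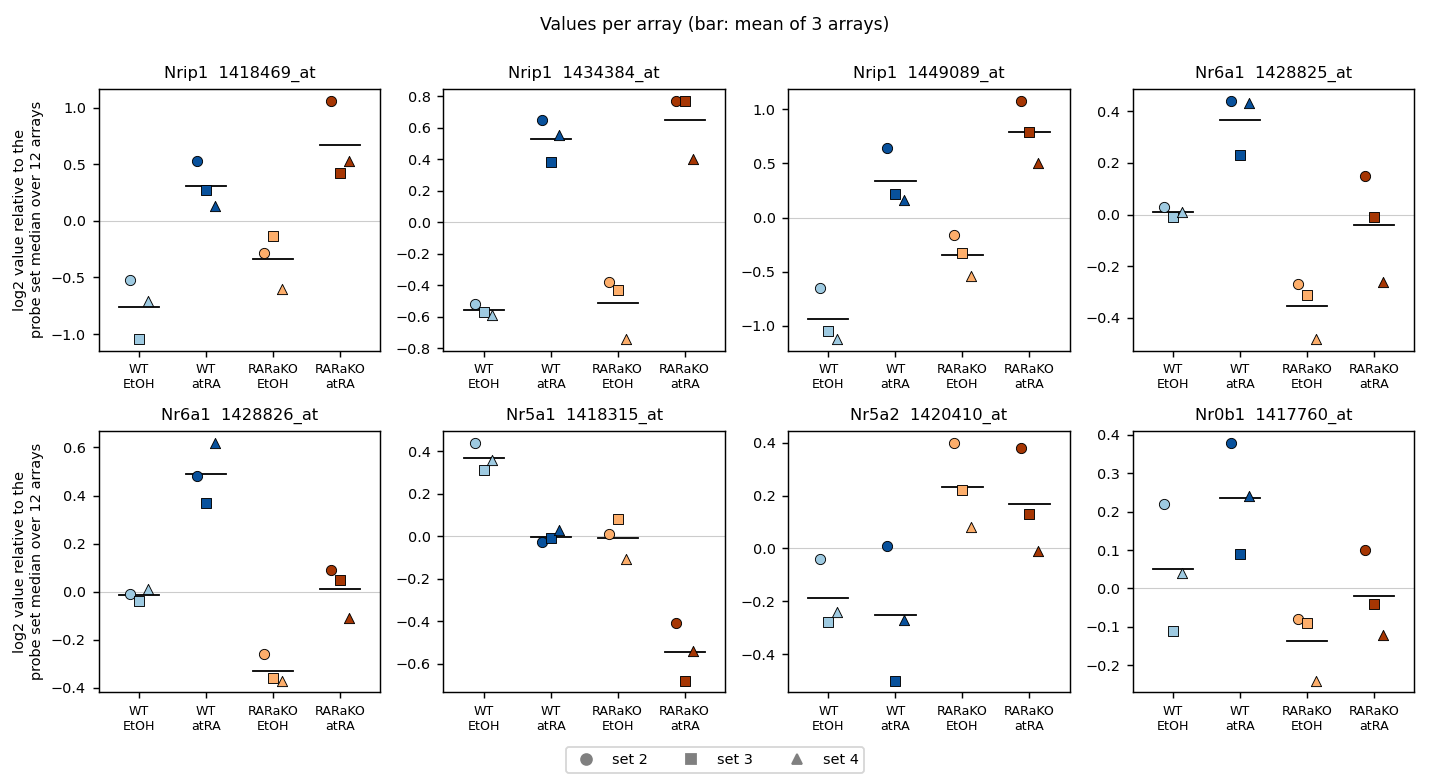
Centred log2 value of each array (points, marker shape by set number) in the 4 groups, with the group mean as a bar, for 8 probe sets of Nrip1, Nr6a1, Nr5a1, Nr5a2 and Nr0b1. The Nrip1 panels show all 6 atRA arrays above all 6 vehicle arrays; Nr6a1 1428826_at is highest in WT atRA (0.37 to 0.62) and Nr5a1 1418315_at is lowest in RARaKO atRA (-0.68 to -0.41).

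In WT, 4 of the 35 probe sets passed the test with atRA, all higher, which is 11.4% against 0.569% of all probe sets tested in either direction and 0.484% higher. They were the 3 of Nrip1 and 1 of Nr6a1. In the arrays labelled RARaKO, 4 of the 35 passed, against 0.263% of all: the same 3 of Nrip1, higher, and 1 of Nr5a1, lower. The 3 Nrip1 probe sets read 1 gene, and the members were chosen with earlier results of these data known. Such shares, here and below, therefore describe the list and do not test it. With the probe sets of each gene averaged, Nrip1 was the 1 member that passed in each response. The median difference over the 35 was 0.06 in WT and 0.07 in the arrays labelled RARaKO, beside -0.01 and 0.00 over all probe sets, so most members lay near no change. The groups did not overlap for 9 of the 35 in WT and for 11 in the arrays labelled RARaKO, against 13.6% and 12.7% of all probe sets. With the set number as a block in the fit, both member counts were again 4, while the counts over all probe sets went from 214 to 339 and from 99 to 167. Control probe sets for the 5′ and 3′ ends of 4 transcripts, which read RNA integrity, moved with 1 of these comparisons: the mean of their 5′ minus 3′ values was -0.123 to -0.0844 in WT EtOH and -0.0248 to 0.0178 in WT atRA, without overlap. They overlapped between RARaKO EtOH (-0.0227 to 0.132) and RARaKO atRA (0.00122 to 0.0897). Their part in the responses was not tested.

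**Figure D2:**
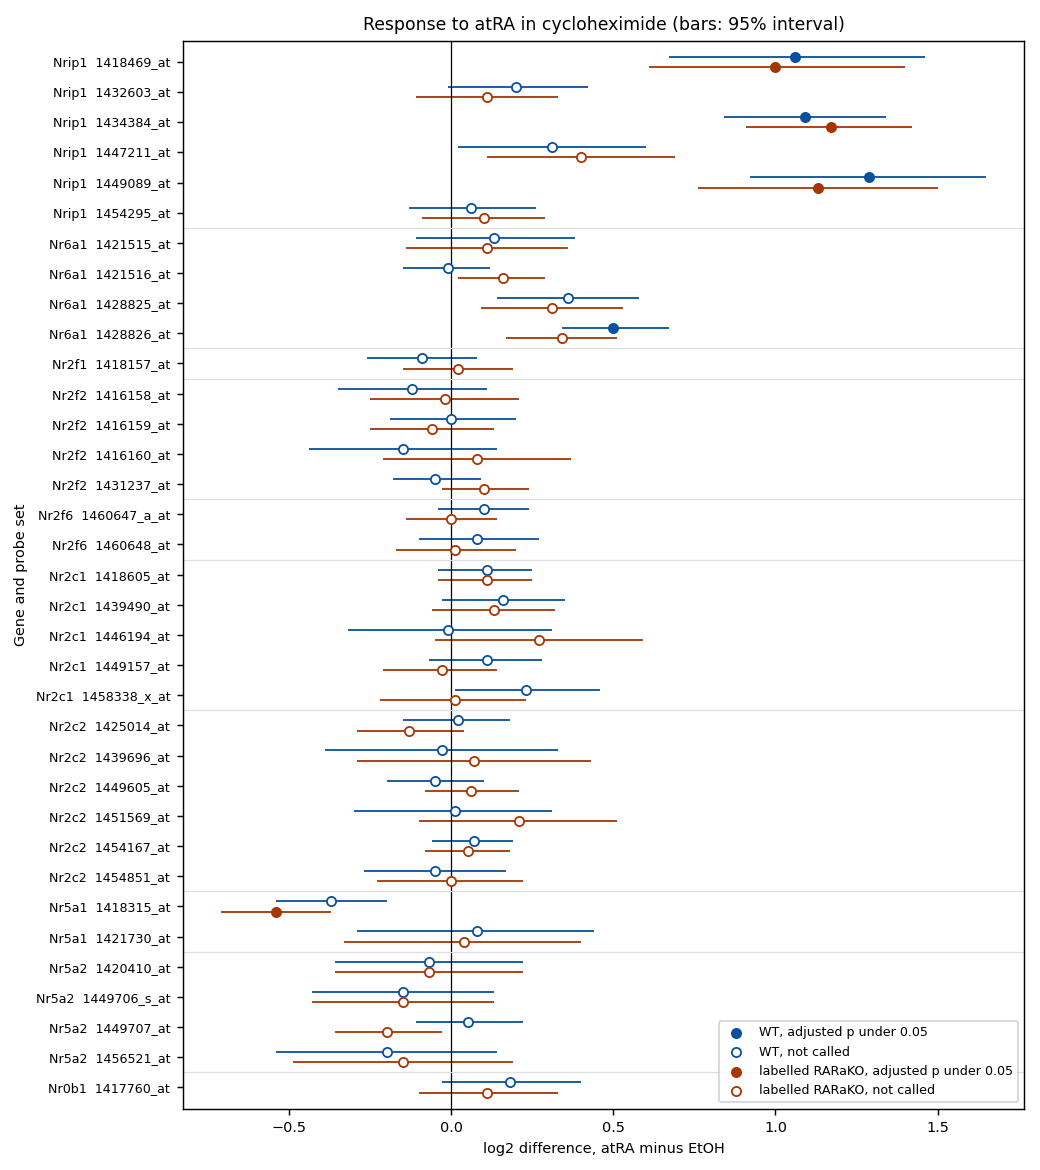
Response to atRA (log2 difference, atRA minus EtOH) of the 35 probe sets in WT and in the arrays labelled RARaKO, with 95% intervals of the limma fit; filled points had an adjusted p under 0.05. The 3 called Nrip1 probe sets lie from 1.00 to 1.29 in both genotypes, and the probe sets of Nr2f1, Nr2f2, Nr2f6, Nr2c1 and Nr2c2 lie near 0.

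Nr6a1 rose with atRA and was lower in the arrays labelled RARaKO, on 2 of its 4 probe sets. On 1428826_at the values were -0.01, -0.04 and 0.01 in WT EtOH, 0.48, 0.37 and 0.62 in WT atRA, -0.26, -0.36 and -0.37 in RARaKO EtOH, and 0.09, 0.05 and -0.11 in RARaKO atRA. Each atRA group was above its own vehicle group, and RARaKO atRA reached only the range of WT EtOH, with which it overlapped. The response was 0.50 ± 0.08 (SE; adjusted p = 0.00924) in WT, a fold change of 1.42, and it was 0.34 ± 0.08 (adjusted p = 0.148) in the arrays labelled RARaKO, which did not pass. The WT call was lost without the WT EtOH array of set 3 (adjusted p = 0.0516) or the WT atRA array of set 4 (adjusted p = 0.0569). It was also lost without any 1 whole set (adjusted p from 0.195 to 0.199). The difference between the 2 responses was -0.16, with a 95% interval from -0.40 to 0.08 and an adjusted p of 1, so a weaker response under the RARaKO label was not shown.

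The second Nr6a1 probe set, 1428825_at, read 0.03, -0.01 and 0.01 in WT EtOH, 0.44, 0.23 and 0.43 in WT atRA, -0.27, -0.31 and -0.48 in RARaKO EtOH, and 0.15, -0.01 and -0.26 in RARaKO atRA. It repeated the order of the groups seen on the first, and the pair correlated at 0.964 over the 12 arrays. Averaged over both genotypes, the response was 0.42 ± 0.06 (adjusted p = 0.00141) on 1428826_at and 0.33 ± 0.07 (adjusted p = 0.0335) on 1428825_at. The second call was lost without any 1 of 10 arrays (adjusted p from 0.0519 to 0.0916), all but the WT atRA array of set 3 and the RARaKO atRA array of set 4. It was also lost without any 1 whole set (adjusted p from 0.114 to 0.31). The averaged call of 1428826_at was lost without set 2 (adjusted p = 0.0613) or set 3 (adjusted p = 0.0629). The remaining Nr6a1 probe sets, 1421515_at and 1421516_at, both in the class from 4 to 8, had averaged responses of 0.12 ± 0.08 and 0.07 ± 0.04 and did not pass.

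Averaged over both treatments, Nr6a1 was lower under the RARaKO label by 0.40 ± 0.06 on 1428826_at (adjusted p = 6.07e-04) and 0.39 ± 0.07 on 1428825_at (adjusted p = 0.00422). In vehicle the differences were -0.32 ± 0.08 (adjusted p = 0.0496) and -0.36 ± 0.10 (adjusted p = 0.0798). In atRA they were -0.48 ± 0.08 (adjusted p = 0.00492) and -0.41 ± 0.10 (adjusted p = 0.046). The vehicle call of 1428826_at sat at the threshold and was lost without any 1 of 8 arrays, every WT EtOH and RARaKO EtOH array, the WT atRA array of set 2 and the RARaKO atRA array of set 3 (adjusted p from 0.0584 to 0.168). The atRA call of 1428825_at was lost without any 1 of 9 arrays, all but the WT atRA array of set 3, the RARaKO EtOH array of set 4 and the RARaKO atRA array of set 2 (adjusted p from 0.0592 to 0.171). The averaged genotype calls of both probe sets, and the atRA call of 1428826_at, remained without any single array. Leaving out any whole set ended the atRA call of 1428826_at (adjusted p from 0.0516 to 0.139). It also ended the vehicle call of 1428826_at (adjusted p from 0.184 to 0.263) and the atRA call of 1428825_at (adjusted p from 0.115 to 0.327). Leaving out set 4 ended the averaged genotype call of 1428825_at (adjusted p = 0.0681).

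Nr5a1 encodes steroidogenic factor, the receptor that drives steroid synthesis genes in adrenal gland and gonad. It fell with atRA and was lower under the RARaKO label, on 1 of 2 probe sets. On 1418315_at the values were 0.44, 0.31 and 0.36 in WT EtOH, -0.03, -0.01 and 0.03 in WT atRA, 0.01, 0.08 and -0.11 in RARaKO EtOH, and -0.41, -0.68 and -0.54 in RARaKO atRA. WT EtOH was highest, RARaKO atRA was lowest, and WT atRA and RARaKO EtOH overlapped between them. The response was -0.54 ± 0.08 (adjusted p = 0.0126) in the arrays labelled RARaKO and -0.37 ± 0.08 (adjusted p = 0.0662) in WT, where it did not pass. The difference between these responses was -0.17, with an interval from -0.41 to 0.07. The WT fall did pass with array weights (-0.35, adjusted p = 0.0265), a variance prior per class (adjusted p = 0.0456) and in the class of at least 8 (adjusted p = 0.0295). It also passed without the RARaKO atRA array of set 2 (adjusted p = 0.0396) or set 3 (adjusted p = 0.0424), so it sat close to the threshold.

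Averaged over both genotypes, Nr5a1 fell by 0.46 on the log2 scale (SE 0.06; adjusted p = 8.18e-04), and averaged over both treatments it was lower under the RARaKO label by the same size (-0.46 ± 0.06; adjusted p = 2.28e-04). The genotype difference was -0.37 ± 0.08 in vehicle (adjusted p = 0.0223) and -0.54 ± 0.08 in atRA (adjusted p = 0.00243). Leaving out the RARaKO EtOH array of set 2 or 3 or the RARaKO atRA array of set 3 ended the call on the RARaKO response (adjusted p from 0.0508 to 0.0896), as did a fit of the 6 arrays labelled RARaKO alone (adjusted p = 0.168). The vehicle call was lost without the WT EtOH array of set 2 or 4 or the RARaKO EtOH array of set 2 or 4 (adjusted p from 0.0676 to 0.0839). Both averaged calls and the atRA genotype call remained without any single array. Leaving out whole sets ended the averaged response call without set 3 (adjusted p = 0.0502). It ended the atRA genotype call without set 3 (adjusted p = 0.0574) or set 4 (adjusted p = 0.0751), and the averaged genotype call remained. The call on the RARaKO response was lost without any 1 of the sets (adjusted p from 0.142 to 0.487). So was the vehicle call (adjusted p from 0.0821 to 0.291). The second Nr5a1 probe set, 1421730_at, read 0.06 ± 0.12 for the averaged response and -0.11 ± 0.12 for the averaged genotype difference, and its correlation with the first was -0.0157. Its arrays spread widely within a group, from -0.35 to 0.36 in WT EtOH, so the fall of Nr5a1 rests on 1 probe set.

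Nr5a1 and Nr6a1 are neighbours on mouse chromosome 2, with Nr5a1 at chr2:38692656-38714542 and 8826 bases between the end of one and the start of the other (GRCm38.p6). They moved in opposite directions with atRA and in the same direction with the RARaKO label. Within 500000 bases on either side, a window chosen after these values were seen, 11 other genes had 28 probe sets. A gene counted where any of it lay in the window. None of the 28 passed the limma test for the averaged response, against 1.6% of all probe sets, and 1 had an unadjusted p under 0.05; the smallest adjusted p among them was 0.436. For the averaged genotype difference 4 of the 28 passed, against 10.9% of all: Golga1 on 2 probe sets (0.40 and 0.32) and Scai on 1 (0.55) were higher, and Nek6 was lower on 1 (-0.20).

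**Figure D3:**
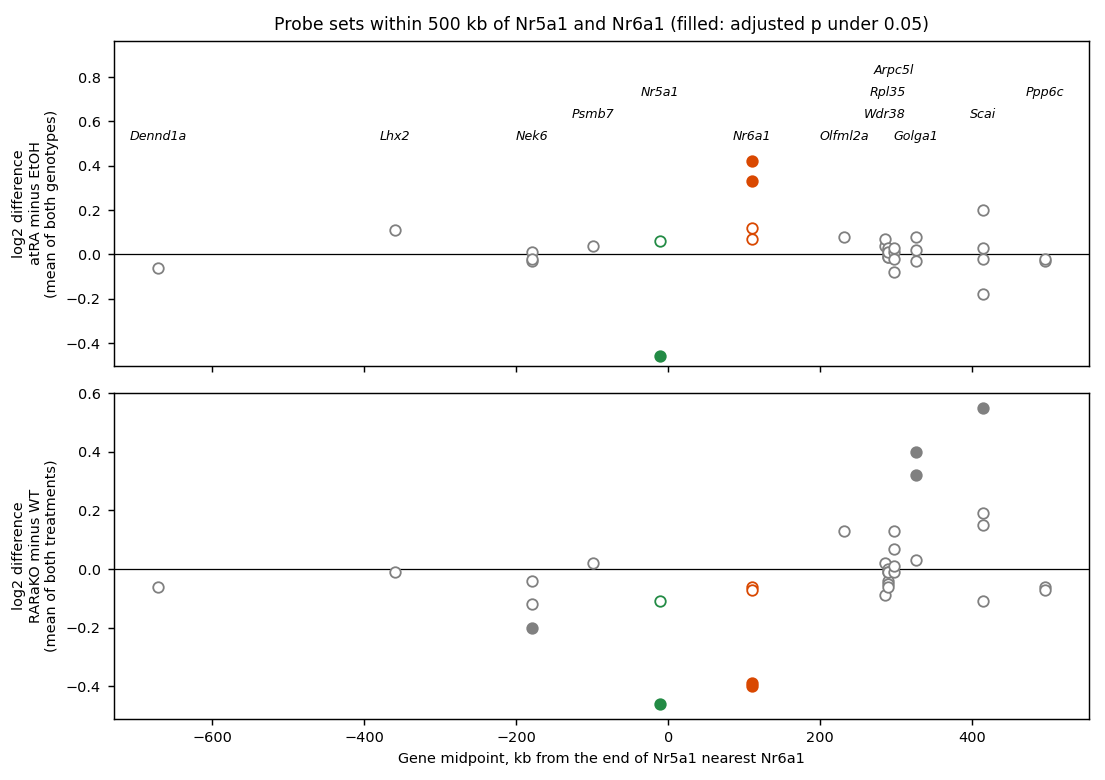
Averaged atRA response and averaged RARaKO minus WT difference (log2) of each probe set of the genes around Nr5a1 (green) and Nr6a1 (orange), plotted at the gene's midpoint in kb from the end of Nr5a1 that faces Nr6a1; filled points had an adjusted p under 0.05. In the response panel the filled points are the Nr6a1 pair above 0 (0.42 and 0.33) and Nr5a1 below 0 (-0.46); in the genotype panel all 3 lie below 0.

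Nr5a2 encodes liver receptor homolog, which helps to keep Pou5f1 on in early embryonic cells. It was higher under the RARaKO label on 1 of 4 probe sets in the fit without a block, and atRA did not change it detectably. On 1420410_at the values were -0.04, -0.28 and -0.24 in WT EtOH, 0.01, -0.50 and -0.27 in WT atRA, 0.40, 0.22 and 0.08 in RARaKO EtOH, and 0.38, 0.13 and -0.01 in RARaKO atRA. Every RARaKO EtOH array was above every WT array, while RARaKO atRA and WT atRA overlapped narrowly. The averaged genotype difference was 0.42 ± 0.10 (adjusted p = 0.0139), a fold change of 1.34; it did not pass without set 3 (0.35, adjusted p = 0.159) or set 4 (0.48, adjusted p = 0.0625). The other 3 probe sets read 0.26 ± 0.09 (1449706_s_at, adjusted p = 0.0952), 0.14 ± 0.05 (1449707_at, adjusted p = 0.122) and 0.24 ± 0.11 (1456521_at, adjusted p = 0.207), the same sign without passing in the fit without a block. The averaged responses of the 4 probe sets to atRA were from -0.17 to -0.07. On 1449707_at the RARaKO EtOH arrays (0.13, 0.30 and 0.13) were above all RARaKO atRA arrays (0.01, 0.01 and -0.05), and it was the 1 member with an unadjusted p under 0.05 for a difference between the responses (-0.25 ± 0.11; adjusted p = 1 in the limma fit).

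Nr0b1 lies on the X chromosome and encodes a receptor-like protein that lacks the usual DNA-binding domain and represses the NR5 receptors. Its single probe set read 0.22, -0.11 and 0.04 in WT EtOH, 0.38, 0.09 and 0.24 in WT atRA, -0.08, -0.09 and -0.24 in RARaKO EtOH, and 0.10, -0.04 and -0.12 in RARaKO atRA. Each group overlapped its neighbours. The averaged response was 0.15 ± 0.07 (adjusted p = 0.452) and the averaged genotype difference -0.22 ± 0.07 (adjusted p = 0.0639), so neither passed in the fit without a block. With the set number as a block the genotype difference passed (adjusted p = 0.0171), as it did in some other settings given below.

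The remaining members passed no test in any comparison. Nr2f1 and Nr2f2 encode the chicken ovalbumin upstream promoter transcription factors, repressors known to appear as embryonal carcinoma cells differentiate with retinoic acid. The Nr2f1 probe set had responses of -0.09 ± 0.08 in WT and 0.02 ± 0.08 in the arrays labelled RARaKO, and its 95% intervals reached no further than 0.08 and 0.19 upward. The 4 Nr2f2 probe sets had averaged responses from -0.07 to 0.03, and the highest upper bound among them in 1 genotype was 0.37, on 1416160_at under the RARaKO label. All 5 probe sets of these 2 genes were in the class from 4 to 8. Nr2f6, a relative of theirs, had both probe sets in the highest class, with averaged responses of 0.05 ± 0.05 and 0.05 ± 0.06 and averaged genotype differences of -0.11 ± 0.05 and -0.03 ± 0.06. A doubling of the reading (1 on the log2 scale) lay outside the interval of every one of these probe sets in both genotypes. Absolute levels are lost, so it is not known how well each probe set detected its transcript. The intervals therefore limit the readings and not the transcripts.

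Nr2c1 and Nr2c2 encode the testicular receptors, which bind the same repeats as the retinoic acid receptors. The 5 Nr2c1 probe sets had averaged responses from 0.04 to 0.14, all above 0, with 1439490_at at 0.14 ± 0.06 (adjusted p = 0.406) and 1418605_at at 0.11 ± 0.05 (adjusted p = 0.416). On 1418605_at the arrays of each atRA group lay above those of its vehicle group, by a small margin. The 6 Nr2c2 probe sets had averaged responses from -0.05 to 0.11. The one furthest from 0 between the genotypes was 1451569_at at 0.27 ± 0.10 (adjusted p = 0.103). That value came with a spread from -0.02 to 0.61 among the RARaKO atRA arrays, and without the array of set 4 in that group it was 0.35 and passed (adjusted p = 0.0217), as did the difference in atRA (0.53, adjusted p = 0.0467).

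The question of the design is whether the response to atRA differs between the genotypes, and no member passed that test. None of the 37600 probe sets passed it either in the limma fit (percent called 0), while 1 of the 35 members and 3.11% of all probe sets had an unadjusted p under 0.05. For the called Nrip1 probe sets the responses under the RARaKO label minus those in WT were 0.08 (95% interval -0.28 to 0.43) on 1434384_at, -0.15 (-0.67 to 0.37) on 1449089_at and -0.06 (-0.62 to 0.50) on 1418469_at. These intervals allow a response weaker by up to 0.67 or stronger by up to 0.50, so they do not show that the responses were equal. Over the 35 probe sets the median difference was -0.02, beside 0.01 over all probe sets.

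Between the genotypes, 2 of the 35 probe sets passed in vehicle (5.71%, against 3.01% of all probe sets) and 3 in atRA (8.57%, against 3.12%), all lower under the RARaKO label; 1.16% and 1.51% of all probe sets were lower. They were Nr6a1 1428826_at and Nr5a1 1418315_at in both, with Nr6a1 1428825_at in atRA. Averaged over treatments 5 of the 35 passed, against 10.9% of all probe sets, a share close to the background: the Nr6a1 pair and Nr5a1 lower, Nrip1 1449089_at (0.52 ± 0.12, adjusted p = 0.0156) and Nr5a2 1420410_at higher. The Nrip1 call did not hold after quantile normalization between arrays (0.35, adjusted p = 0.0662) or without set 3 (0.46, adjusted p = 0.204). The other Nrip1 probe sets read from 0.08 to 0.39 and did not pass in this fit (adjusted p from 0.0729 to 0.699). Among them 1434384_at, also in the highest class, read 0.08 ± 0.08 (adjusted p = 0.629). Averaged over genotypes 6 of the 35 passed for atRA, against 1.6% of all. The set numbers were taken to pair the arrays of the vehicle comparison, where deviations from the group means correlated at 0.116 to 0.238 within sets. Arrays of different sets reached 0.129, so this pairing is uncertain. With the set numbers as a block, 6 probe sets passed in vehicle in place of 2. The 4 gained were Nrip1 1449089_at (0.60, adjusted p = 5.83e-04), Nr6a1 1428825_at (-0.36, adjusted p = 0.0396), Nr5a2 1420410_at (0.42, adjusted p = 0.0108) and Nr5a2 1449707_at (0.27, adjusted p = 0.04). Over all probe sets the same block raised the vehicle count from 1131 to 1972.

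**Figure D4:**
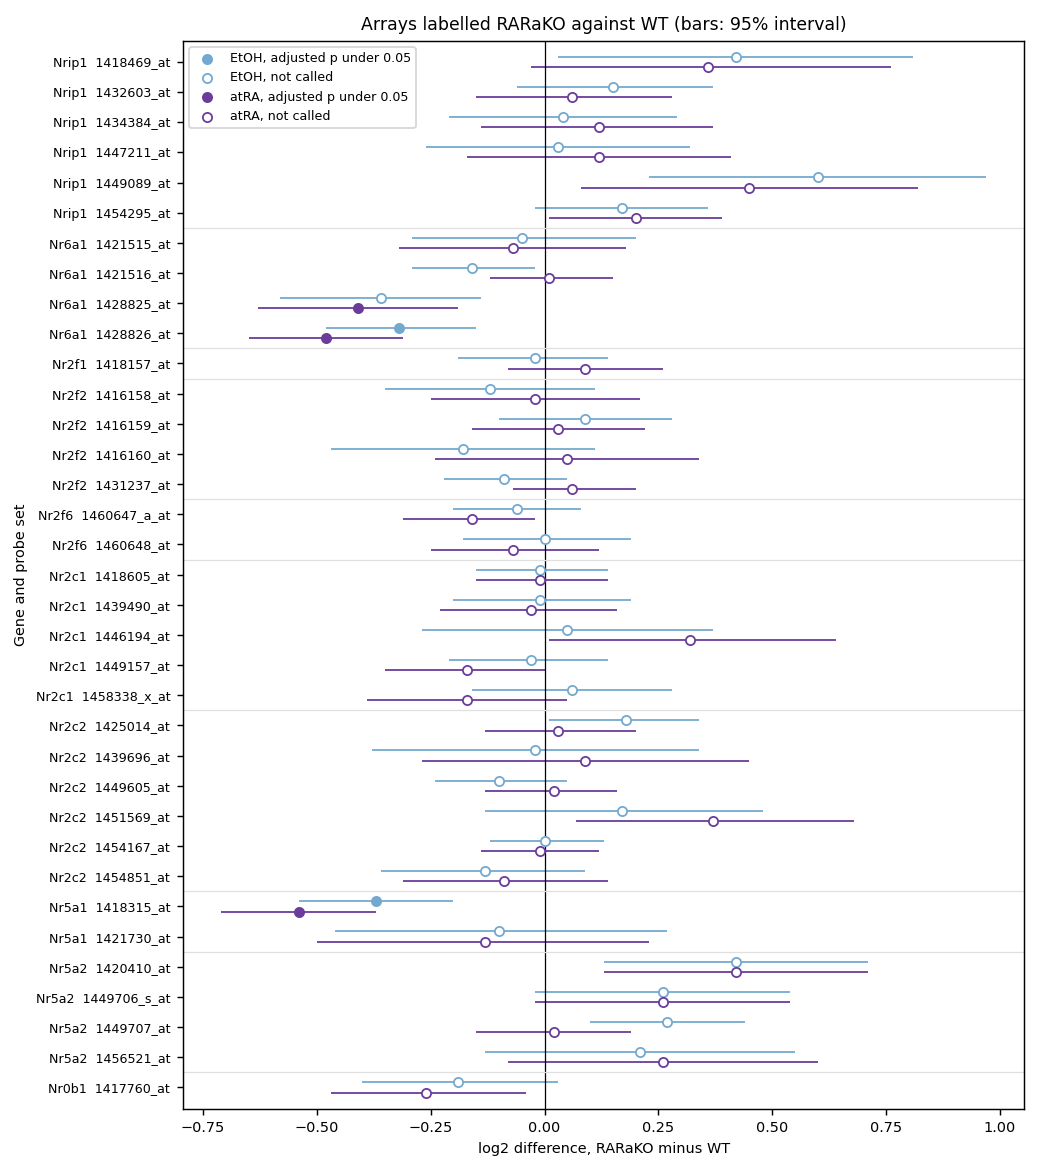
Difference between arrays labelled RARaKO and WT (log2) of the 35 probe sets in vehicle (EtOH) and in atRA, with 95% intervals of the limma fit; filled points had an adjusted p under 0.05. The filled points are those of Nr6a1 and Nr5a1 below 0 (-0.54 to -0.32); the Nr5a2 probe sets lie at or above 0, from 0.02 to 0.42.

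Other measures moved with the genotype label too. The 5′ minus 3′ control values of the WT EtOH arrays (-0.123 to -0.0844) were below those of the RARaKO EtOH arrays (-0.0227 to 0.132), and those of WT atRA and RARaKO atRA overlapped. Of 7 neuron markers measured, 5 differed in vehicle: Stmn2 (2.15 ± 0.23), Tubb3 (0.65 ± 0.14) and Elavl4 (0.60 ± 0.10) were higher under the RARaKO label, and Dcx (-0.41 ± 0.10) and Gap43 (-0.29 ± 0.06) were lower. None of the 10 embryonal carcinoma or 5 fibroblast markers passed the limma test in vehicle, with 1 of each at an unadjusted p under 0.05. The part of these in the member differences was not tested.

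The genes that work with the members were described from lists, 1 probe set per gene. Of 33 other nuclear receptors measured, Rarb (1.35 ± 0.09, adjusted p = 1.33e-05) and Rara (0.45 ± 0.09, adjusted p = 0.046) rose with atRA in WT, and Rarb (0.95 ± 0.09, adjusted p = 4.05e-04) was the 1 that rose in the arrays labelled RARaKO. In the average over genotypes Rxrg (0.41 ± 0.08), a partner of the retinoic acid receptors, and Esrra (0.22 ± 0.04) rose beside Rarb (1.15 ± 0.06). In the average over treatments Rara (0.63 ± 0.06) and Rarb (0.34 ± 0.06) were higher and Rxrb (-0.17 ± 0.05) and Rxrg (-0.53 ± 0.08) lower under the RARaKO label. Rxrg, like Nr6a1, was thus higher with atRA and lower under the label, and in atRA alone it was lower by 0.61 ± 0.12. Rarg did not pass in any comparison.

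Of 18 other corepressor genes measured, none passed for atRA in either genotype by the limma test (2 in WT and 1 under the RARaKO label had an unadjusted p under 0.05), and Tbl1xr1 fell in the average over genotypes (-0.28 ± 0.05, adjusted p = 0.0217). Bcl11b, a repressor that binds the NR2F receptors, was lower under the RARaKO label (-0.35 ± 0.06 averaged over treatments, adjusted p = 0.0031). Of 18 coactivator genes 1 passed in any comparison, Ppargc1b, higher under the label by 0.26 ± 0.07. Of 16 genes known as targets of the NR5 receptors or of steroid synthesis, Cyp11a1, which makes the first step of steroid synthesis, was the 1 that passed. It rose with atRA by 0.24 ± 0.04 in the average over genotypes (adjusted p = 0.0113), opposite in sign to Nr5a1, and was lower under the label by 0.31 ± 0.04 (adjusted p = 6.07e-04), the same sign as Nr5a1. A link between Cyp11a1 and Nr5a1 was not tested.

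Of 20 pluripotency genes linked to Nr5a2, Nr6a1 and Nr0b1, none passed in a single genotype or treatment in the limma fit, while 4 in the WT response, 0 in the RARaKO response, 3 between genotypes in vehicle and 4 in atRA had an unadjusted p under 0.05. In the average over treatments Klf2 (0.22 ± 0.05) and Tcl1 (0.19 ± 0.05) were higher and Pou5f1 (-0.16 ± 0.04, adjusted p = 0.0155) lower under the RARaKO label. Nr6a1, whose product is known to repress Pou5f1, was lower too. A link between Pou5f1 and Nr6a1 was not tested, and protein was not measured. Of 17 known retinoic acid targets 10 rose in WT and 9 in the arrays labelled RARaKO. Between the genotypes, averaged over treatments, 4 of the 17 were higher under the RARaKO label and 4 lower, against 10.9% of all probe sets. Rarb (0.34), Stra6 (0.27), Stra8 (0.51) and Foxa1 (0.39) were higher. Hoxb1 (-0.84), Hoxb5 (-0.97), Meis1 (-0.33) and Meis2 (-0.71) were lower. Hoxb1 and Hoxb5, like Nr6a1, thus rose with atRA and were lower under the label. Cyp26a1, which breaks down retinoic acid, rose by 1.35 ± 0.08 in WT and 1.38 ± 0.08 under the RARaKO label.

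The genes whose 12 values were most like those of each called member probe set were found by Pearson correlation, as a description of arrays that share 4 groups. For Nrip1 they were Cyp26a1 (0.972), Enpp4 (0.97) and Camk2n1 (0.968) on 1434384_at, Chd7 (0.977), Tmtc1 (0.976) and Abl1 (0.972) on 1449089_at, and Abl1 (0.954), Hbegf (0.951) and Tmem229b (0.944) on 1418469_at. Abl1 thus appeared for 2 of the 3 Nrip1 probe sets. For Nr6a1 they were Fgfr4 (0.976), Ei24 (0.965) and Tshz1 (0.956) on 1428826_at, and Trib2 (0.95), Scube3 (0.948) and Enox2 (0.941) on 1428825_at. For Nr5a1 they were Aoah (0.977), Trim8 (0.958) and Gap43 (0.957), and for Nr5a2 Gm2381 (0.987), Adgrg6 (0.983) and Eif3a (0.973).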

How the data were processed

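The authors deposited one table of expression values for 12 Affymetrix arrays; per the submitters' processing notes the tool was GCRMA, of a version not given. The deposited values were taken as log2, the scale GCRMA gives; that each probe set is centred on its median over the arrays was found from the values. Of 37661 probe sets, 61 controls were left out. Symbols came from the platform annotation (30488 probe sets with 1 symbol, 784 with several, 6328 with none). Differences were fitted by lmFit and eBayes of limma 3.58.1, run in R 4.3.3 (a mean per group over all 12 arrays, no block, 8 residual and 4.6 prior degrees of freedom), with two-sided p-values adjusted by Benjamini-Hochberg over 37600 probe sets and called under 0.05. No filter on low values was possible, since levels were centred away, so all 35 member probe sets entered every test, and a minimum class of 8 was an alternative. The scripts were tested on simulated data.

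Arrays were grouped by the labels' genotype and treatment. The set numbers were checked by correlating same-set deviations from the group means: 0.392, 0.267 and 0.101 for the WT response, 0.21, 0.117 and 0.497 for the RARaKO response and 0.137, 0.116 and 0.238 for the vehicle genotype comparison, all over 0.1 and so taken as pairs, but 0.287, 0.144 and 0.0375 for the atRA genotype comparison. Between arrays of different sets and groups the same correlation ran from -0.37 to 0.129. The same-set values 0.101, 0.116 and 0.117 lie under that highest value. The minimum of 0.1 therefore does not separate same-set arrays from others, and the pairing is uncertain. No arrays held identical values. Alternatives were the set number as a block, only the groups compared, array weights, quantile normalization or median centring between arrays, robust eBayes, a variance prior per class, single-symbol probe sets only, means per gene, and leaving out arrays or sets. Every member gene was named and every member probe set was plotted. Other genes named came from the lists, the neighbours on chromosome 2, and the 3 most correlated with each called member probe set. Not every list gene that passed a test was named, and some known retinoic acid targets that passed were only counted. Members, lists and tests were chosen with earlier results of these data known. Protein sequences were not used here, and the Nr5a1 promoter was not analysed here. The number of arrays limits the precision.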

Additional observations from a re-analysis of the deposited data

How the results depend on the processing

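No member difference that passed the test changed sign under any alternative run, and 15 of the 24 such differences passed without any single array. Leaving out a whole set was harder on them. The averaged responses of the called Nrip1 probe sets passed without any set. So did the averaged genotype differences of Nr6a1 1428826_at and Nr5a1 1418315_at. No other call passed without each of the sets, so none within a single genotype or treatment did. The counts of member probe sets moved as follows. With the set number as a replicate block, 6 in place of 2 passed between genotypes in vehicle, 5 in place of 3 in atRA and 9 in place of 5 in the average over treatments; the other counts stayed at 4, 4, 0 and 6. For the atRA comparison the same-set correlations were not all over 0.1 (lowest 0.0375). With only the arrays of the groups compared, 1 passed for the RARaKO response. In vehicle, 5 passed with array weights, 1 with each array centred on its median and 1 with robust eBayes. For the WT response, 6 in place of 4 passed with array weights, while the count over all probe sets went from 214 to 382. As means of all probe sets of a gene, 1 gene passed in each response (Nrip1), 1 in the vehicle comparison (Nr6a1) and 2 in the averaged response (Nrip1 and Nr6a1), a count of genes and not of probe sets. In that limma fit per gene, Nr6a1 (adjusted p = 0.0352) and Nr5a1 (0.0324) passed between genotypes in atRA. In the average over treatments Nrip1 (0.0221), Nr6a1 (0.00247), Nr5a1 (0.0051), Nr5a2 (0.0348) and Nr0b1 (0.0443) passed. Without a single array the counts ranged from 2 to 5 (WT response), 1 to 4 (RARaKO response), 0 to 3 (vehicle), 2 to 3 (atRA genotype), 5 to 7 (averaged response) and 5 to 7 (averaged genotype). Without a whole set, which leaves 2 arrays per group, they ranged from 0 to 2, 0 to 1, 0 to 1, 0 to 1, 3 to 5 and 3 to 5. The causes were not tested, beyond the fewer arrays in the fits that leave some out. The block's gains in atRA were Nrip1 1449089_at (0.45, adjusted p = 0.00388) and Nr5a2 1420410_at (0.42, adjusted p = 0.0108). In the average over treatments they were Nrip1 1418469_at (0.39, adjusted p = 0.0196), Nr5a2 1449706_s_at (0.26, adjusted p = 0.0316), Nr5a2 1456521_at (0.24, adjusted p = 0.0352) and Nr0b1 (-0.22, adjusted p = 0.0171). Nr0b1 also passed there with array weights (adjusted p = 0.0304), in the class of at least 8 (0.0375), in the fit per gene (0.0443), and without the WT EtOH array of set 3 (0.0391), the WT atRA array of set 3 (0.0407) or the RARaKO atRA array of set 2 (0.0497). In the other settings it did not, with adjusted p up to 0.388. Quantile normalization between arrays lost 1 call, the averaged genotype difference of Nrip1 1449089_at (0.35, adjusted p = 0.0662).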

Other observations

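The calls among the members sat mostly on probe sets of the highest recovered level class. Of the 14 member probe sets with a median of at least 8, 6 passed at least 1 of the 7 comparisons, and of the 21 with a median from 4 to 8, 1 did, the Nrip1 probe set 1418469_at. Over all probe sets, 17.1% of those of at least 8 and 8.81% of those from 4 to 8 passed at least 1 comparison. Both Nr6a1 probe sets that passed were in the highest class and both that did not were in the class from 4 to 8, and the same held for the pair of Nr5a1 probe sets. This split was noticed after the calls were known and was not tested.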
